A study of Mus musculus with 4 samples.

Results

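Constitutive proteasome genes were taken as the protein-coding genes whose mouse symbol starts with Psma, Psmc or Psmd and a digit, or runs from Psmb1 to Psmb7. They were 36 of the 11820 genes in the count table. By known role they were 14 subunits of the core particle, 17 subunits of the regulatory particle, 3 assembly chaperones (Psmd5, Psmd9 and Psmd10) and 2 genes that the symbols admit without being part of the usual particle. Those 2 were Psma8, the alpha subunit of the testis, and Psmc3ip, a factor of meiotic recombination named for an ATPase it binds.

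The cells came from the colon lamina propria of 4 male C57/Bl6N mice aged 6 to 7 weeks, 2 fed chow (chow 9 and chow 11) and 2 fed a coconut-based high-fat diet with 60% fat (HFD 1 and HFD 3), each for 1 week. No mouse carried a transgene by its labels. Live CD45+ lineage-negative CD11b+ CD24- cells that were Ly6C+ or CD64+ were sorted and run on 1 well per mouse of a droplet assay that counts unique molecular identifiers (UMIs) at the 3′ end of transcripts. Each mouse is therefore also 1 library, and the mouse, not the cell, was the replicate.

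The proteasome is the protease that degrades most short-lived and ubiquitin-tagged proteins of the cell. Its core particle stacks outer rings of alpha subunits, which gate the chamber, on inner rings of beta subunits, 3 of which (Psmb5, Psmb6 and Psmb7) carry the cutting activities. The regulatory particle caps the core: its lid removes ubiquitin, and its base, with a ring of 6 ATPases (Psmc1 to Psmc6), unfolds the substrate and feeds it in. In macrophages the particle also turns over regulators of inflammatory signalling, such as the inhibitor of NF-kappaB, and makes peptides for antigen presentation. Under interferon the catalytic subunits can be replaced by Psmb8, Psmb9 and Psmb10, which are not members here.

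The libraries held 904 and 2002 cells from the chow mice and 966 and 1548 from the HFD mice, with 3824228 to 7947893 UMIs per mouse and medians of 3266 to 3926 UMIs per cell. Across the 4 libraries, 23 cell barcodes occurred more than once, and 41 cells (0.756%) were marked as possible doublets. Cells were clustered without the proteasome genes into 6 clusters numbered by the rising share of C1qa, a complement gene of resident macrophages, in all UMIs of a cluster. As means over mice cluster 3 was above cluster 4 (6024 and 5650 CPM), with 2923 CPM in cluster 4 of HFD 3. Cluster 1 was monocyte-like, with a mean of 1213 CPM (counts scaled to a common library total) of Ly6c2, a monocyte surface antigen, and 227 CPM of C1qa. Clusters 4, 5 and 6 were resident-like, and pooled they had 50.1 CPM of Ly6c2 and 8168 CPM of C1qa. Clusters 2 and 3 fitted neither the monocyte nor the resident list and stay unnamed, with C1qa between those levels. Both held the genes listed for transitional cells, Ly6c2 and Ccr2 with MHC class II genes such as H2-Ab1. Their means were 277.5, 843.5 and 23090 CPM in cluster 2 and 143, 667 and 29080 CPM in cluster 3. In cluster 1 H2-Ab1 was at 4117 CPM. Immunoglobulin genes (Igha and Jchain) led cluster 3. Clusters 1 to 5 and the pooled resident-like cells were analysed, each with at least 20 cells in every mouse. The smallest held 26 cells, in cluster 4 of HFD 3.

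Promoters are shown for 4 members because subunit genes are known targets of Nfe2l1, a factor that binds antioxidant-type elements, and because the members' levels are compared below by particle. RefSeq promoters of GRCm38.p6, 250 bases before to 50 after the start of a gene, matched 29 of the 36 members. The letters TGACNNNGC, searched on both strands, were found in 5 of the 29 (17.2%), against 13.99% of the 27025 genes in the table and 12.4% of its 32851 promoters. The members were Psmb5, Psmb6, Psmd12, Psmc6 and Psmd9, so that 2 of 11 core and 2 of 14 regulatory promoters had a match. CCAAT, the letters that factor NF-Y binds, was searched on both strands without regard to overlap with the first motif and was found in 12 of 29 (41.4%), against 41.1% of genes and 37.4% of promoters, and in 6 of 11 core and 4 of 14 regulatory promoters. Psma7, whose level differed most between stages, had CCAAT and not TGACNNNGC in this window. The windows of 100 bases with a match in the catalytic subunits Psmb5 (chr14:54617996-54618095, minus strand) and Psmb6 (chr11:70525257-70525356, plus strand), the lid subunit Psmd12 (chr11:107479278-107479377, plus strand) and the ATPase Psmc6 (chr14:45329574-45329673, plus strand) are given 5′ to 3′ on the strand of the gene, with the match in capitals. In Psmd12 and Psmc6 the match lies on the opposite strand, so the capitals are its reverse complement.
Psmb5: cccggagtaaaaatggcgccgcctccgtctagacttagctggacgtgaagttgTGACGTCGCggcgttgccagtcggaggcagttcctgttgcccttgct
Psmb6: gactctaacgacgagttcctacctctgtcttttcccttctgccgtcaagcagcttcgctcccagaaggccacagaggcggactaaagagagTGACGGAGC
Psmd12: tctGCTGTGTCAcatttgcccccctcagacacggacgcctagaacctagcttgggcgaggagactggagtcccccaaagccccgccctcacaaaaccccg
Psmc6: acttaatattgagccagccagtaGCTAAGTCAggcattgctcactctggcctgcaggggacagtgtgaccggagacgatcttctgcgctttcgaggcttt
The match lies 47 to 39 bases before the start of Psmb5 and 9 to 1 bases before that of Psmb6, and further upstream, at 247 to 239 bases and 227 to 219 bases, in Psmd12 and Psmc6. A match of letters is no evidence of binding.

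The members differed widely in how often they were seen. Psma7, an alpha ring subunit, had a UMI in 76.1% of cells (15464 UMIs) and Psmb1, a beta ring subunit, in 72.8%, whereas the alpha ring subunit Psma3 had one in 11.1% (737 UMIs) and the chaperone Psmd5 in 8.95%. Psma8 (0.498% of cells) and Psmc3ip (1.29%) were near the limit of detection and failed the filter, which asked for over 1 CPM in at least 2 sums and a UMI in 5% of cells. The other 34 passed it in every comparison except the diet effect in cluster 4, where Psmd5 failed and 33 were tested. Reads from stretches shared with other genes could be assigned elsewhere. In 6 members over 50% of the 31-base words in the last 500 transcript bases also occur, on either strand, in another gene's transcripts (Psma5 77.2%, Psmb7 76.4%, Psmc3ip 75.5%, Psmb3 73.6%, Psmb5 66.9% and Psmd1 58.5%). Values of these 6 are uncertain for that reason, and so, to a lesser degree, are those of Psmd2 (43.0%), Psma4 (41.0%), Psma3 (38.6%), Psmc1 and Psmd11 (35.5% each). Psma7 and Psmd8 share no word. The gene sharing most words was Nek6 for Psmb7 and Mlx for Psmc3ip. Counts of 3′ tags do not scale with transcript length, so CPM compares each gene with itself.

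The first question was how the subunits differ along maturation, from monocyte-like to resident-like cells of the same mouse. Core genes were lower in resident-like cells: 6 of the 14 (Psma7, Psmb1, Psma4, Psma2, Psmb3 and Psmb2) fell, against 1 of 17 regulatory genes (the lid subunit Psmd8), and none of the 34 tested members rose (edgeR quasi-likelihood test with mouse as a block, false discovery rate of 1%). In the same comparison 12.6% of all genes fell and 25.2% were called in either direction. An unadjusted p under 0.05 was reached by 11 core and 5 regulatory genes, and by 2232 of 4914 genes. The members' median log2 fold change was −0.21, that of the core −0.37, that of the regulatory particle −0.14 and that of all genes −0.01. The regulatory median was not stable: it was 0.03 without HFD 1, −0.07 without chow 11 and −0.04 with clusters built with the members, while the core median ran from −0.51 to −0.27 with 1 mouse left out. The members' median was −0.12 without chow 11 and −0.36 without HFD 3.

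Psma7, an outer-ring subunit, carried the largest difference. Its level was 1102 and 1052 CPM in monocyte-like cells of chow 9 and chow 11 and 1196 and 1247 CPM in those of HFD 1 and HFD 3, against 383, 421, 505 and 550 CPM in resident-like cells of the same mice. All 4 monocyte-like values lay above all 4 resident-like ones. The log2 fold change was −1.32 ± 0.12 (SE, n = 4 mice; edgeR adjusted p = 2.05e-06). In the single clusters, Psma7 stood at 652 to 1033 CPM in cluster 2, 531 to 772 in cluster 3, 489 to 721.5 in cluster 4 and 362.5 to 489 in cluster 5.

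Psmd8, which sits in the lid and joins late in its assembly, was the regulatory gene that fell. It had 285, 303, 319 and 296 CPM in monocyte-like and 133.5, 122, 121 and 190.5 CPM in resident-like cells of chow 9, chow 11, HFD 1 and HFD 3. These ranges did not overlap either, and HFD 3 was the highest resident-like value. The log2 fold change was −1.12 ± 0.14 (SE, n = 4; edgeR adjusted p = 3.83e-05).

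Among the beta ring subunits, Psmb1 had 729, 728, 813 and 675 CPM in monocyte-like cells and 402, 437, 423 and 484 CPM in resident-like cells, in the same order of mice. The 2 sets of values did not overlap and the log2 fold change was −0.76 ± 0.12 (SE, n = 4; edgeR adjusted p = 0.000329). Psmb3 fell by 0.60 (adjusted p = 0.00154) and Psmb2 by 0.49 (adjusted p = 0.00586) on the log2 scale in edgeR. Psmb2 was lower in each mouse, but its highest resident-like value (447 CPM, HFD 3) lay within the monocyte-like range of 444 to 562 CPM. Psmb3 and Psmb2 were the less stable calls: the adjusted p of Psmb3 was 0.046 without chow 11, and that of Psmb2 was 0.0112 without chow 9, 0.0707 without chow 11 and 0.0315 without HFD 1.

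In the alpha ring, Psma4 fell by 0.74 (adjusted p = 0.00027) and Psma2 by 0.66 (adjusted p = 0.0013) on the log2 scale. Psma4 had 303, 269, 394 and 458 CPM in monocyte-like cells against 179, 164, 205 and 312 CPM, and Psma2 had 414, 419, 575 and 603 CPM against 298, 294, 296 and 372 CPM. Each mouse was lower in resident-like cells for both genes, and for Psma4 the groups overlapped through HFD 3 (312 CPM, above both chow monocyte-like values). Psma3 went the other way without passing the test: it had 8.82, 26.0, 24.8 and 34.9 CPM in monocyte-like and 45.1, 41.0, 32.4 and 28.1 CPM in resident-like cells (a log2 fold change of 0.59 with an adjusted p of 0.197 in edgeR).

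The catalytic subunits did not pass the test. Psmb5, of the chymotrypsin-like activity, had 126, 124, 178 and 166 CPM in monocyte-like and 84.7, 104, 125 and 159 CPM in resident-like cells (a log2 fold change of −0.35 with an adjusted p of 0.0761 in edgeR). It was lower in each mouse. Psmb6, of the caspase-like activity, had 291, 321, 378 and 384 CPM against 285, 276, 285 and 343.5 CPM (−0.21, edgeR adjusted p = 0.189). Psmb7, of the trypsin-like activity, had 106, 66.5, 120.0 and 82.4 CPM against 86.1, 45.6, 69.1 and 137 CPM (−0.21, edgeR adjusted p = 0.508), with HFD 3 above its own monocyte-like value.

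In the regulatory particle the base ATPases together were at 567, 555, 701 and 691 CPM in monocyte-like cells and 588, 585, 647.5 and 709 CPM in resident-like cells. The mean of the 4 log2 ratios was 0.01, and the fitted medians were 0.02 for the ATPases, −0.29 for the 3 base subunits without ATPase activity (Psmd1, Psmd2 and Psmd4) and −0.18 for the lid. The lid sum was 914, 933, 1135 and 1131 CPM against 751, 708, 755.5 and 1018 CPM. Its mean log2 ratio was −0.36, and −0.13 without Psmd8. Psmd1, the large scaffold of the base, had the highest regulatory fold change (0.27, edgeR adjusted p = 0.318), with 49.97, 40.5, 56.9 and 62.8 CPM in monocyte-like and 53.8, 58.4, 64.8 and 78.1 CPM in resident-like cells. The chaperone Psmd5, which holds an ATPase during base assembly, had 0.37 (edgeR adjusted p = 0.35).

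**Figure D1:**
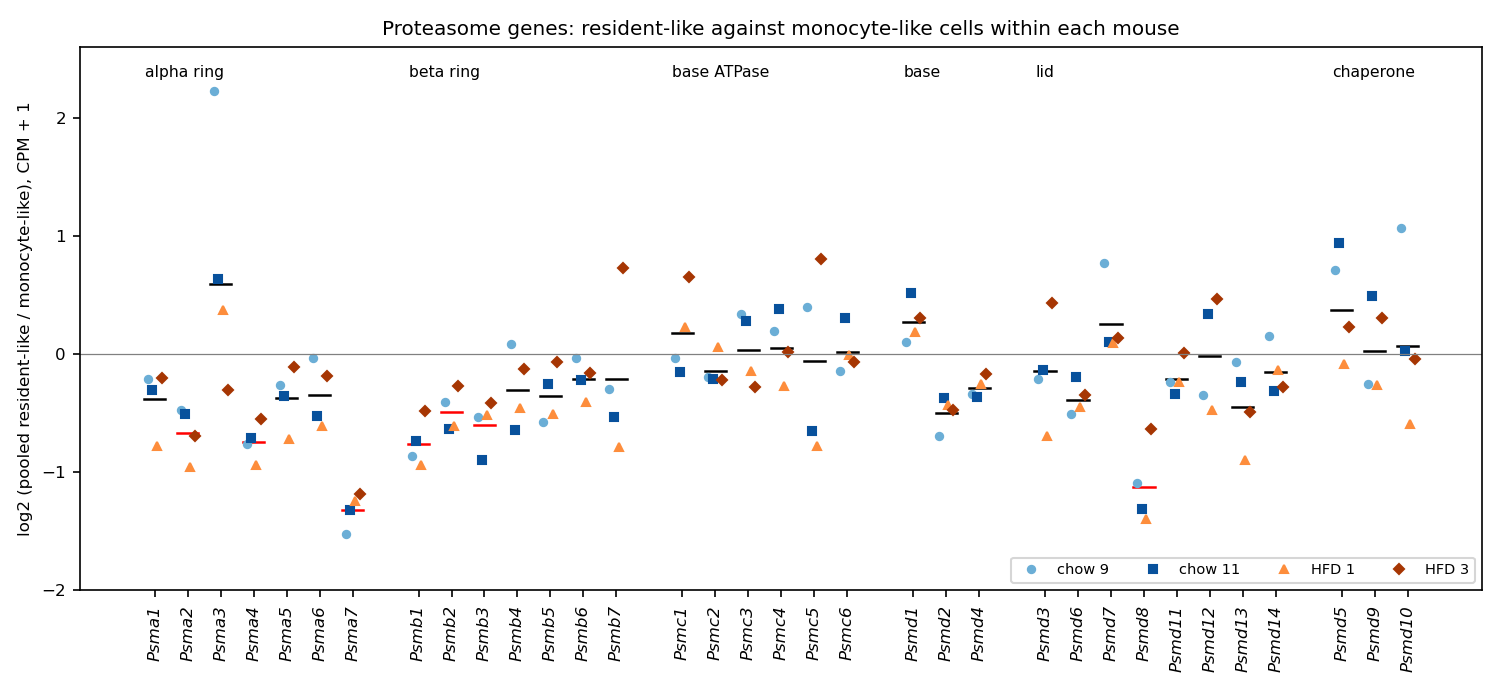
Log2 ratio of pooled resident-like to monocyte-like CPM (CPM + 1) for each of the 34 tested members by role, with a point per mouse and a bar at the fitted log2 fold change, red where the gene was called. The red bars are Psma7, Psmb1, Psma4, Psma2, Psmb3 and Psmb2 in the core and Psmd8 in the lid, from −1.32 to −0.49.

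Counted without a test, 16 of the 34 members were lower in resident-like cells in all 4 mice (11 of 14 core and 5 of 17 regulatory genes), against 25.5% of all genes, and 2 members were higher in all 4 (24.9% of all genes). Psma7, Psmd8, Psmb1, Psma2 and Psma4 were called under all 15 alternative settings tried. With libraries scaled by total UMIs in place of TMM (edgeR's trimmed-mean scaling), 17 members fell (12 core and 5 regulatory genes). Of all genes, 1061 of 4914 then fell, in place of 617, and their median moved to −0.26. Counts of calls therefore depend on the scaling, and the contrast between particles was read from the ratio below.

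The other clusters gave the order of the differences. In cluster 5, where 10.8% of all genes fell and 22.2% were called, the same 7 members fell, Psma7 by 1.42 (adjusted p = 2.41e-07) and Psmd8 by 1.10 (adjusted p = 1.75e-05) in edgeR. Of these 7, Psmb2 was called with no mouse left out only (adjusted p of 0.0109 to 0.0679 otherwise), Psmb3 was not called without chow 11 (0.0547) and Psma2 not without HFD 3 (0.0117). In cluster 4, with 6.92% of all genes lower and 13.8% called, Psma7 (−0.99, adjusted p = 0.000273) and Psmd8 (−1.03, adjusted p = 0.00356) fell, and Psmd8 was not called without chow 9 (adjusted p = 0.0125), chow 11 (0.0721) or HFD 1 (0.0274), which left 1 call each. In cluster 3, with 7.93% lower and 14.3% called, Psma7 (−0.81, adjusted p = 9.84e-05) and Psmd8 (−1.03, adjusted p = 0.000219) fell. In cluster 2, where 9.29% of all genes were called, edgeR's quasi-likelihood test called 0 members. An unadjusted p under 0.05 was reached by 8 of 34 members and by 1331 of 4682 genes. DESeq2 called 0 members (349 genes) and edgeR's likelihood-ratio test 1 (738 genes). Psmd8 (−0.53, adjusted p = 0.0166) and Psma7 (−0.41, adjusted p = 0.0373) were lowest there, and the chaperone Psmd10 (0.55, adjusted p = 0.0585), the lid deubiquitinase Psmd14 (0.53, adjusted p = 0.0479) and the lid subunit Psmd11 (0.50, adjusted p = 0.0574) highest. The members' median in cluster 2 was 0.14, with 25 of 34 positive. It was 0.08 without HFD 3 and 0.22 with 8 clusters, and 0.04 with 17 of 33 positive in chow mice alone. It was 0.07 with total UMIs in place of TMM and 0.07 without a filter on low counts, with the median of all genes then at −0.07 and 0.0004. In cluster 3 the median was −0.11, with 13 of 34 positive, and it turned to 0.18, with 27 of 34 positive, with clusters built with the members. It was −0.02 without HFD 1, −0.0051 with 8 clusters, 0.05 in chow mice alone, −0.30 with total UMIs and −0.21 without a filter. The median of all genes was −0.21 with total UMIs and −0.02 without a filter.

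At the upper ends of the other comparisons none passed the test. In cluster 3 these were the chaperones Psmd9 (0.51, adjusted p = 0.223) and Psmd10 (0.41, adjusted p = 0.236) and Psmd1 (0.36, adjusted p = 0.305), and in cluster 4 Psma3 (0.82, adjusted p = 0.246), Psmd1 (0.59, adjusted p = 0.207) and the lid subunit Psmd7 (0.48, adjusted p = 0.172). In cluster 5 they were Psma3 (0.93, adjusted p = 0.0537), Psmd5 (0.47, adjusted p = 0.324) and the ATPase Psmc1 (0.21, adjusted p = 0.595). The third-lowest fold changes were Psmb4, a beta ring subunit, in cluster 3 (−0.30, adjusted p = 0.246) and Psmb1 in cluster 4 (−0.61, adjusted p = 0.0141) and cluster 5 (−0.74, adjusted p = 0.000308).

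**Figure D2:**
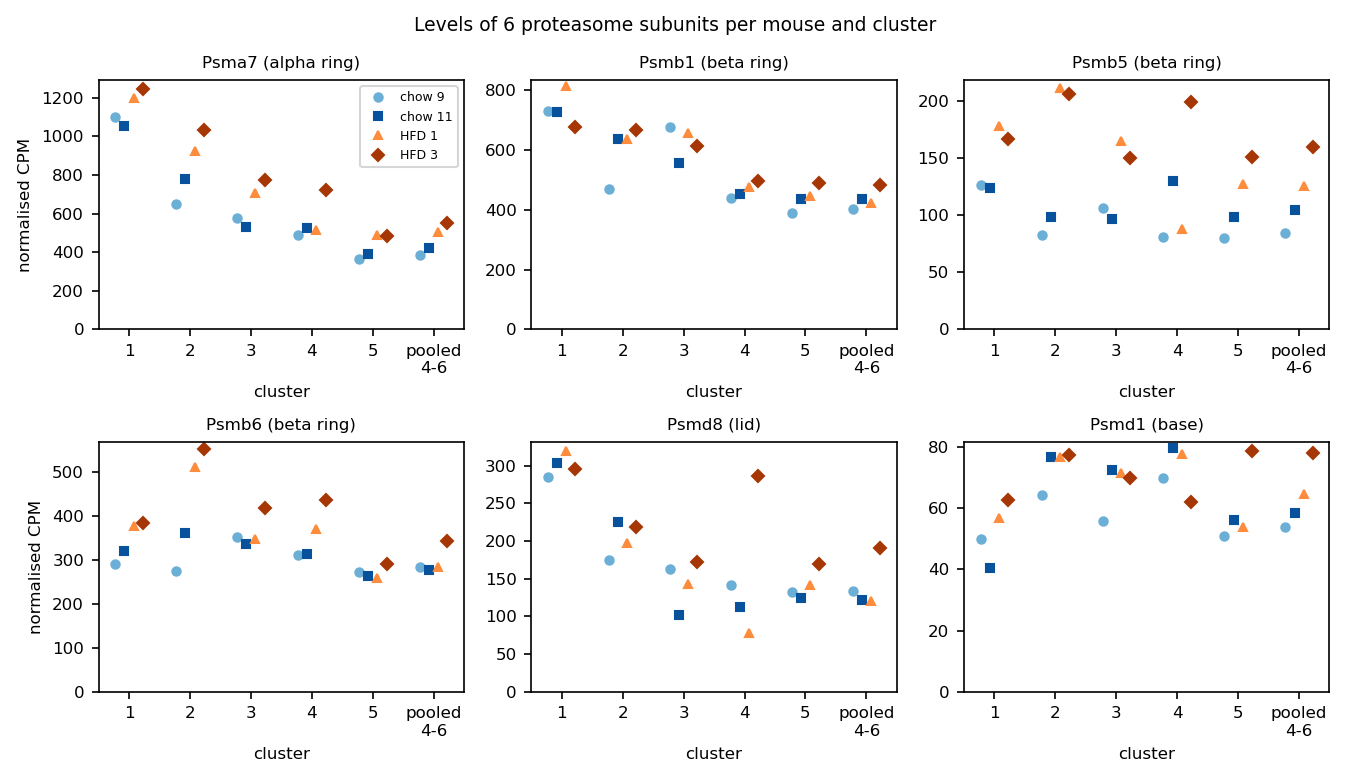
CPM of Psma7, Psmb1, Psmb5, Psmb6, Psmd8 and Psmd1 in each cluster, with a symbol for each mouse (chow in blue, HFD in orange and brown), on linear axes from 0. Psma7 lies between 1052 and 1247 CPM in monocyte-like cells and between 383 and 550 CPM in pooled resident-like cells, while Psmb6 lies between 276 and 384 CPM in both.

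The summed core genes were compared with the summed regulatory genes within each library, which no scaling of libraries can alter. The core sum was 4615, 4833, 5822 and 5792 CPM in monocyte-like cells and 3049, 3012, 3341 and 4222 CPM in resident-like cells of chow 9, chow 11, HFD 1 and HFD 3. The regulatory sum was 1922, 1904, 2236 and 2267 CPM against 1677, 1642, 1744 and 2121 CPM. The log2 ratio of core to regulatory particle was 1.26, 1.34, 1.38 and 1.35 in monocyte-like cells (mean 1.34 ± 0.05, SD, n = 4) and 0.86, 0.87, 0.94 and 0.99 in resident-like cells (mean 0.92 ± 0.06). Every monocyte-like value was above every resident-like one, and the difference within a mouse was −0.42 ± 0.05 (SD, n = 4; −0.47 to −0.36). It was −0.15 ± 0.09 in cluster 2, −0.21 ± 0.13 in cluster 3 (−0.37 to −0.05), −0.34 ± 0.12 in cluster 4 and −0.42 ± 0.05 in cluster 5.

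The size of this difference rests on few genes. Without Psma7 it was −0.27 and without Psmd8 −0.53. Sem1, the smallest lid subunit, and Adrm1, a ubiquitin receptor of the base, lie outside the symbol rule, and Sem1 was counted more often than any member in both stages: 1405, 1135, 1687 and 1439 CPM in monocyte-like and 645, 595, 809 and 915 CPM in resident-like cells. With both counted in the regulatory particle, an alternative added after seeing the data, the ratio was 0.45, 0.66, 0.55 and 0.63 in monocyte-like cells and 0.36, 0.41, 0.37 and 0.46 in resident-like cells, so the ranges overlapped between chow 9 in the first and HFD 3 in the second. The difference was then −0.17 ± 0.07 (SD, n = 4), below 0 in 4 of 4 mice. In the single clusters it was −0.06 ± 0.05 in cluster 2, −0.06 ± 0.09 in cluster 3, where HFD 3 was at 0.04, −0.21 ± 0.10 in cluster 4 and −0.16 ± 0.06 in cluster 5. With each subunit weighted alike it was −0.28 in pooled resident-like cells and −0.05, −0.13, −0.20 and −0.26 in clusters 2 to 5. The ratio has no test, since it is a score over chosen members.

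**Figure D3:**
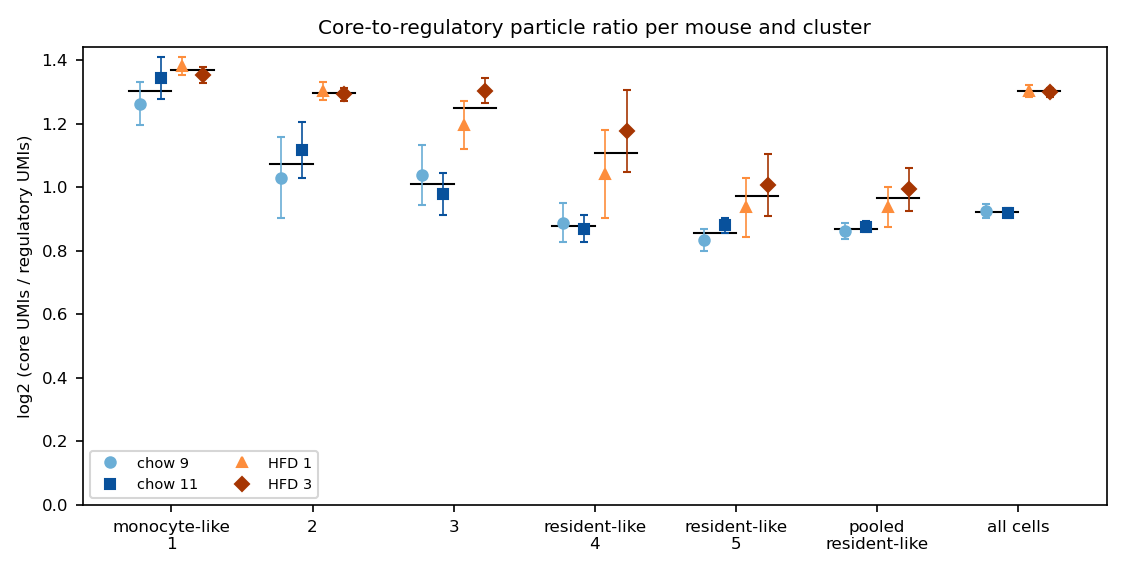
Log2 ratio of summed core to summed regulatory particle CPM in each mouse and cluster, without Sem1 and Adrm1, with counting standard errors as error bars and black bars at the diet means. Monocyte-like values lie between 1.26 and 1.38 and resident-like values between 0.86 and 0.99.

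As a share of all UMIs, the 31 subunits of both particles took 0.715%, 0.698%, 0.920% and 0.912% in monocyte-like cells and 0.435%, 0.428%, 0.466% and 0.601% in resident-like cells. No resident-like value reached the monocyte-like range, and the difference within a mouse was −0.329 ± 0.085 percentage points (SD, n = 4). Cluster 2 had 0.562%, 0.704%, 0.861% and 0.974%, cluster 3 0.576%, 0.534%, 0.618% and 0.721%, cluster 4 0.545%, 0.526%, 0.504% and 0.823%, and cluster 5 0.411%, 0.405%, 0.440% and 0.528%. The cluster 3 values depend on the clustering. With clusters built with the members, cluster 3 minus cluster 1 was −0.0869 in place of −0.199 percentage points, and HFD minus chow in cluster 3 was 0.294 in place of 0.115. Without HFD 3, HFD minus chow was 0.0631 in cluster 3, −0.0321 in cluster 4, 0.0318 in cluster 5 and 0.0349 in pooled resident-like cells, in place of 0.115, 0.1275, 0.0757 and 0.102 percentage points.

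**Figure D4:**
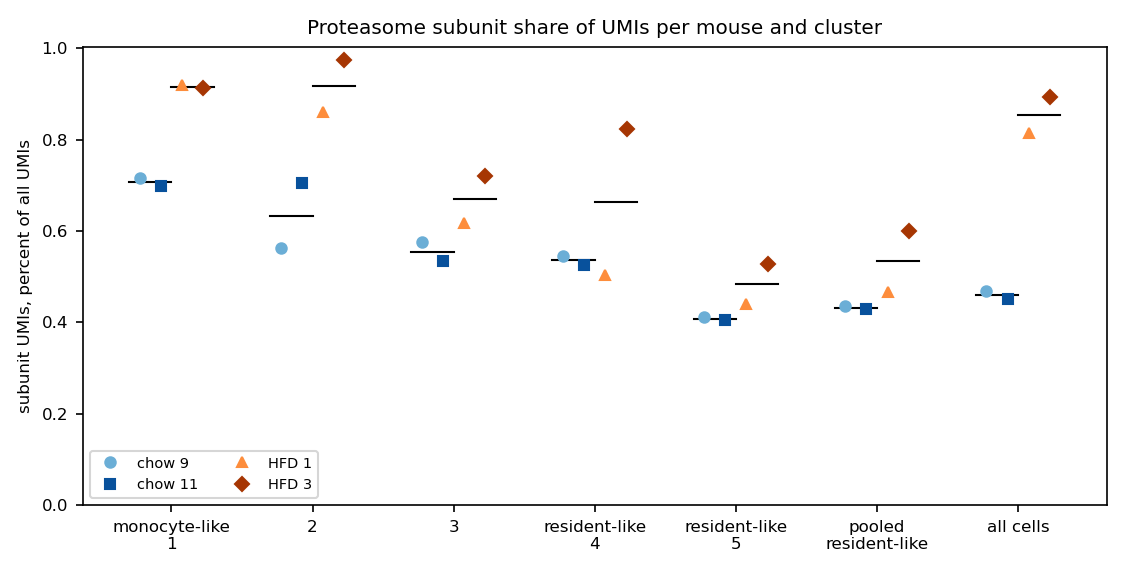
Summed UMIs of the 31 subunits as a percent of all UMIs in each mouse and cluster, with black bars at the diet means. The share in monocyte-like cells was 0.209 percentage points higher in HFD than in chow mice, and in cluster 4 the diets overlapped.

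The second question was the effect of 1 week of HFD per mouse within each stage. Most members leaned higher in HFD mice, but none passed the test in any single cluster. edgeR's quasi-likelihood test called 0 members in cluster 1 (1.46% of all genes called), cluster 2 (3.30%), cluster 3 (0.327%), cluster 4 (0.618%) and cluster 5 (0.252%). At an unadjusted p under 0.05 there were 8, 12, 4, 1 and 5 members. Of all genes, 738 of 4518, 835 of 4790, 578 of 5502, 369 of 4207 and 434 of 5163 were under it. DESeq2 called 0 in each, and the likelihood-ratio test called 1, Psmb5, in cluster 2 and 0 in the others. The log2 fold change was positive for 31, 31, 21, 24 (of 33) and 26 members in clusters 1 to 5, with medians of 0.33, 0.40, 0.19, 0.17 and 0.26, against −0.01, 0.01, −0.01, −0.01 and −0.00 for all genes. With 2 mice per diet an exact permutation test of a single value cannot go below a p of 0.33.

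These counts have limits. Without HFD 3 the median was 0.11 in cluster 3 (23 positive), −0.06 in cluster 4 (15 positive) and 0.05 in cluster 5 (18 positive), and without HFD 1 it was 0.45 in cluster 4. With clusters built with the members it was 0.51 in cluster 3 (31 positive). With no filter on low counts it was 0.69, 0.29, −0.14 and 0.11 in clusters 2 to 5. The median of all genes then moved too, to 0.40, 0.06, −0.55 and −0.28. Without chow 11, which leaves 1 chow mouse against 2 HFD mice, edgeR called Psmb4 (0.95) in cluster 1. In cluster 2 it then called Psma2 (1.48), Psma4 (1.12) and Psmb6 (0.94). More of all genes were also called in both clusters than with all mice. In cluster 1 the 2 plasma-cell markers in the table (of 4 listed) summed to 16990 CPM in chow 11 and to 78.1 to 270 CPM in the other mice, and their part in the members' values was not tested.

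For 19 of 34 members in monocyte-like cells the HFD values all exceeded the chow values, against 22.7% of all genes, and for 3 they all lay below (24.2% of all genes). Cell markers moved in the same cells: the 9 resident markers summed to 1008 and 2219 CPM in chow and 666 and 843 CPM in HFD mice, and the 4 MHC class II genes to 5643 and 11550 against 15420 and 19810 CPM. The 7 monocyte markers summed to 13430 and 17930 against 20190 and 19500 CPM and the 6 dendritic-cell markers to 191 and 156 against 261 and 334 CPM. Within the monocyte list Plac8 was higher in HFD mice (5705 and 7124 against 10500 and 9651 CPM). Fn1 was lower there (620 and 471 against 326 and 221 CPM). The 6 proliferation markers summed to 11.8 and 43.3 CPM in chow and 76.1 and 104.5 CPM in HFD mice. Of the genes of the first 4 lists Ccr7 and Clec9a were at 0 in both chow mice and Mertk was at 0 in chow 11 and HFD 3. Their part in the members' values was not tested. The core median was 0.38 and the regulatory median 0.31, with 14 of 14 and 14 of 17 positive. With 8 clusters they were 0.29 and 0.09, with 14 of 14 and 10 of 17 positive. Psmd5 (0.98, adjusted p = 0.324), the lid subunit Psmd13 (0.92, adjusted p = 0.0589) and the ATPase Psmc4 (0.84, adjusted p = 0.056) were highest and the ATPases Psmc1 (−0.19, adjusted p = 0.824) and Psmc2 (−0.13, adjusted p = 0.825) and the ubiquitin receptor Psmd4 (−0.11, adjusted p = 0.825) lowest in edgeR. Psmb5 stood at 126 and 124 CPM in chow and 178 and 166 CPM in HFD mice, and Psmb6 at 291 and 321 against 378 and 384 CPM, both without overlap. Psmb7 overlapped, with 106 and 66.5 against 120.0 and 82.4 CPM.

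In cluster 2, HFD values were above chow values for 22 of 34 members (27.4% of all genes) and below for 1 (22.7%), with a core median of 0.52 and a regulatory median of 0.23, the latter 0.49 without chow 11. Psmb5 had the highest fold change (1.17, edgeR adjusted p = 0.018), from 82.6 and 98.8 CPM in chow mice to 211.8 and 206 CPM in HFD mice. Psmd5 (1.02, adjusted p = 0.522) and the base scaffold Psmd2 (1.02, adjusted p = 0.0797) followed, and Psmd11 (−0.26, adjusted p = 0.715), Psma3 (−0.16, adjusted p = 0.927) and the lid subunit Psmd6 (−0.05, adjusted p = 0.957) were lowest. In these cells the 7 monocyte markers summed to 2800 and 4593 CPM in chow and 4834 and 6209 CPM in HFD mice. The 6 dendritic-cell markers summed to 340 and 439 against 281.5 and 206 CPM. The 2 plasma-cell markers in the table summed to 220 and 373 against 117 and 85.8 CPM. None of these sums overlapped between diets, but the first 2 lists were not uniform. Plac8 had 955 and 2453 against 3423 and 4311 CPM, while Ccr2 had 1258 and 1043 against 562 and 512 CPM. Fn1 had 174 and 170 against 60.9 and 33.7 CPM. Of the dendritic-cell markers Cd209a had 303 and 324 against 32.3 and 35.7 CPM. Ccr7 went the other way, with 27.5 and 93.3 against 230 and 157.5 CPM. The part of these markers in the members' values was not tested.

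In cluster 3 the diets did not overlap for 10 of 34 members with HFD above (20.9% of all genes) and 3 with HFD below (20.2%). In cluster 4 these were 7 of 33 (16.5%) and 3 (24.0%), and in cluster 5 they were 14 of 34 (19.6%) and 0 (21.5%). In cluster 3 the core median was 0.39 and the regulatory median −0.01. Without HFD 3 they were 0.12 and 0.11, and with clusters built with the members 0.64 and 0.39. The regulatory median was 0.03 without HFD 1, 0.0095 without chow 11 and 0.03 without chow 9. Psmd14 (0.74, adjusted p = 0.453), Psmb5 (0.64, adjusted p = 0.457) and Psmb2 (0.56, adjusted p = 0.348) were highest, and Psma3 (−0.90, adjusted p = 0.641), Psmd5 (−0.69, adjusted p = 0.702) and Psmd9 (−0.28, adjusted p = 0.897) lowest in edgeR. In cluster 3 the plasma-cell markers summed to 47410 and 51820 CPM in chow and 34210 and 7526 CPM in HFD mice. The 6 proliferation markers summed to 375 and 217 against 57.3 and 142 CPM, and the dendritic-cell markers to 123 and 169 against 57.3 and 97.6 CPM. The monocyte markers, with Vcan at 0, summed to 1074 and 1476 against 1635 and 1598 CPM. None of these sums overlapped between diets. Within the monocyte list Plac8 had 117 and 322 against 648 and 825 CPM. Ccr2 went the other way, with 811 and 783.5 against 630 and 442.5 CPM. The part of these markers in the members' values was not tested.

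In cluster 4 the medians were 0.38 and 0.13, from sums of only 50 and 26 cells in the HFD mice. They were 0.07 and −0.19 without HFD 3 and 0.66 and 0.23 without HFD 1, and with clusters built with the members 0.24 and 0.08. In these cells the monocyte markers summed to 495 and 591 CPM in chow and 1148 and 2052 CPM in HFD mice, the proliferation markers to 127 and 135 against 77.8 and 49.8 CPM, and the resident markers to 26260 and 28020 against 25120 and 12940 CPM. None of these sums overlapped between diets, and their part in the members' values was not tested. Psmb7 (1.18, adjusted p = 0.409), Psmb4 (0.70, adjusted p = 0.577) and Psmd6 (0.65, adjusted p = 0.754) were highest there, and Psmc2 (−0.75, adjusted p = 0.724), Psmd9 (−0.62, adjusted p = 0.902) and Psmd10 (−0.61, adjusted p = 0.862) lowest. In cluster 5 the medians were 0.33 and 0.25, with Psmc1 (0.88, adjusted p = 0.525), Psmb5 (0.61, adjusted p = 0.593) and the alpha ring subunit Psma5 (0.60, adjusted p = 0.565) highest and Psmd10 (−0.34, adjusted p = 0.864), the ATPase Psmc3 (−0.27, adjusted p = 0.853) and Psma3 (−0.22, adjusted p = 0.929) lowest. Without HFD 3 the medians in cluster 5 were 0.12 and −0.02. In these cells the monocyte markers summed to 248 and 450 CPM in chow and 1013 and 1151 CPM in HFD mice. The MHC class II genes summed to 113600 and 114700 against 133900 and 125100 CPM, and the resident markers to 29000 and 30460 against 31540 and 32030 CPM. The dendritic-cell markers summed to 49.7 and 53.7 against 97.9 and 66.6 CPM, and the plasma-cell markers to 242.5 and 464 against 239.7 and 169.6 CPM. None of these sums overlapped between diets. Within the resident list C1qa had 7512 and 8329 against 9888 and 9453 CPM. Pf4 went the other way (2322 and 1951 against 1213 and 1247 CPM), as did Cd81 (3568 and 4149 against 2950 and 3325 CPM). C1qb and C1qc moved with C1qa, and Mrc1 and Adgre1 with Pf4. The part of these markers in the members' values was not tested.

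In the pooled resident-like cells HFD values were above chow values for 16 of 34 members (22.0% of all genes) and below for 1 (20.04%). The pool was made up differently by diet: cluster 4, where the subunits' share of UMIs was above that of cluster 5, gave 20.2% and 22.5% of its cells in chow and 32.1% and 30.6% in HFD mice. Psmb5 had 84.7 and 104 CPM in chow and 125 and 159 CPM in HFD mice, without overlap. The sum of the 7 listed monocyte markers moved the same way in these cells, with 322 and 448 CPM in chow and 986 and 1318 CPM in HFD mice. None of the 7 was at 0. Most of the sum's rise came from Plac8 (41.4 and 83.9 against 514 and 606 CPM) and Chil3 (30.9 and 55.65 against 199 and 262 CPM). Ccr2 (199 and 269 against 224.5 and 281 CPM) and Fn1 (19.2 and 24.5 against 6.475 and 37.5 CPM) overlapped between diets. The plasma-cell markers summed to 3019 and 670 CPM in chow and 209 and 144 CPM in HFD mice (in cluster 4 to 7096 and 1536 against 272 and 74.6 CPM), and the dendritic-cell markers to 45.7 and 42.7 against 64.8 and 49.97 CPM. In cluster 4 of HFD 3 the 9 resident markers summed to 12940 CPM, against 25120 to 28020 CPM in the other mice. The part of these markers in the members' values was not tested.

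**Figure D5:**
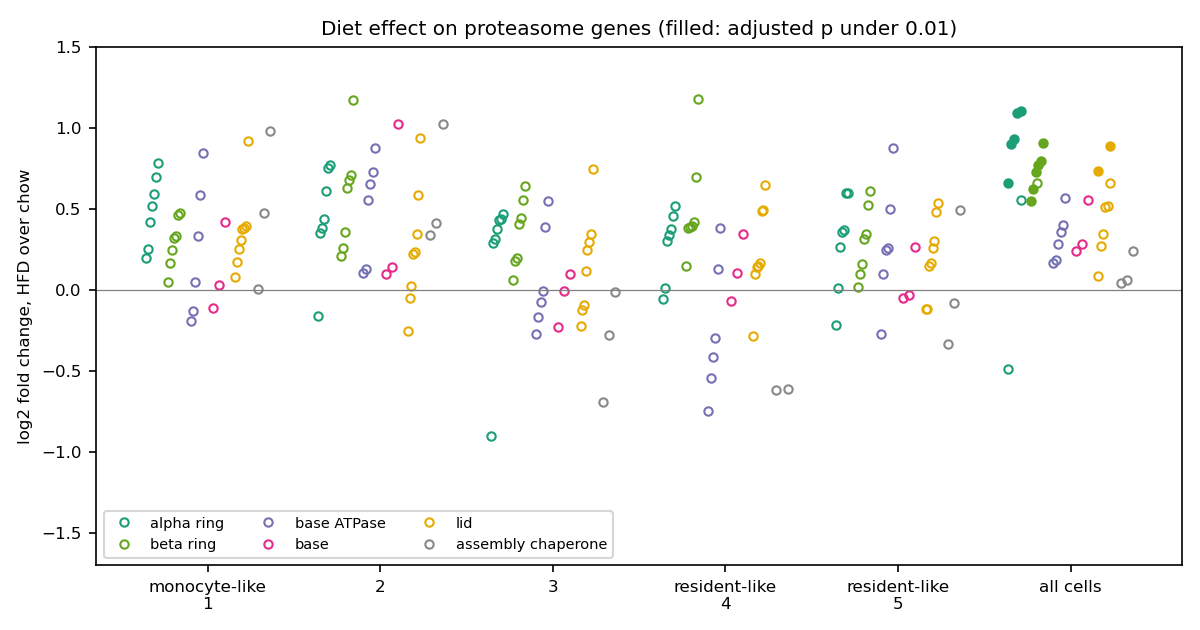
Fitted log2 fold change of HFD over chow for each tested member by role, in each cluster and over all cells, filled where the adjusted p was under 0.01. The columns of the clusters hold no filled point and the column of all cells holds 13.

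The core-to-regulatory ratio of HFD mice was above that of chow mice in each cluster without overlap, by 0.06 in cluster 1, 0.22 in cluster 2, 0.24 in cluster 3, 0.23 in cluster 4, 0.11 in cluster 5 and 0.10 in pooled resident-like cells. Counting error alone was 0.07 for each chow mouse in cluster 1 and 0.14 and 0.13 for the HFD mice in cluster 4. With Sem1 and Adrm1 counted in the regulatory particle the differences were 0.03, 0.12, 0.15, 0.04, 0.08 and 0.03, and the diets overlapped in each of these except cluster 3. With only the subunits in which under 10% of the 31-base words occur in another gene, the differences were 0.015, 0.13, 0.26, 0.095, 0.068 and 0.053. With each subunit weighted alike the difference was 0.13 in cluster 1 and 0.14 in cluster 2. In cluster 1 it was 0.02 without chow 9 and 0.10 without chow 11. In cluster 4 it was 0.10 with clusters built with the members and 0.13 as a per-cell mean, and in cluster 5 it was 0.07 with clusters built with the members.

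Over all cells of a mouse, in which the shares of the stages enter, 13 of 34 members rose and 0 fell with HFD in edgeR's quasi-likelihood test, where 7.67% of all genes rose and 16.2% were called. They were 11 of the 14 core and 2 of the 17 regulatory genes, with medians of 0.75 and 0.36. Of the core genes 13 were positive and of the regulatory genes 17. An unadjusted p under 0.05 was reached by 14 core and 10 regulatory genes, and by 2142 of 4955 genes. Core genes also held more UMIs (35437 for the 14 against 14397 for the 17 regulatory genes in HFD 3), so the 2 counts of calls are not alike in power. Sem1, the lid subunit outside the symbol rule, rose as well (log2 fold change 1.05). Its fold change was 1.00 without HFD 1 and 1.13 without HFD 3, and it was not called in either. Monocyte-like cells numbered 112 and 118 in the chow and 402 and 554 in the HFD libraries, and resident-like cells 717 and 1744 against 156 and 85. A shift in cell types and a change of level per cell cannot be told apart in these sums. Both HFD mice were above both chow mice for 31 members (33.9% of all genes) and below for 1 (35.7%). The 6 dendritic-cell markers summed to 73.0 and 64.6 CPM in chow and 233 and 223 CPM in HFD mice. The 2 plasma-cell markers summed to 4936 and 4032 against 2451 and 1191 CPM. Neither sum overlapped between diets, and their part in the members' values was not tested.

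Psma7 had 474 and 468 CPM in chow and 980.5 and 1041 CPM in HFD mice (log2 fold change 1.10 ± 0.10, SE; edgeR adjusted p = 0.000901). Psma4 had 196 and 179.5 CPM in chow and 377 and 424 CPM in HFD mice (1.09, edgeR adjusted p = 0.0014). Psmb5 had 90.7 and 105 against 184 and 184 CPM (0.91, edgeR adjusted p = 0.00318) and Psmb6 292 and 285 against 417 and 472.5 CPM (0.62, edgeR adjusted p = 0.00818). None of these 4 overlapped between diets.

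Psmd8 had 152 and 133 CPM in chow and 238 and 235 CPM in HFD mice (0.73, edgeR adjusted p = 0.0056), and the lid subunit Psmd13 64.0 and 74.1 against 124 and 133 CPM (0.89, edgeR adjusted p = 0.00402). The other genes that rose were Psma5 (0.93), Psma2 (0.90), Psmb2 (0.79), Psmb3 (0.77), Psmb4 (0.73), the alpha ring subunit Psma1 (0.66) and Psmb1 (0.55). Psmb7 was at 0.66 (adjusted p = 0.115). Psma3 (−0.49, adjusted p = 0.0463), Psmd9 (0.04, adjusted p = 0.901) and Psmd5 (0.06, adjusted p = 0.797) were lowest. Without HFD 3 edgeR called 0 of these, without HFD 1 it called 2 (Psma7 and Psma4) and without chow 11 it called 8. The fold changes of the 13 without HFD 3 were 0.55 to 1.08, all still positive, and the calls over all genes were 119 in place of 805 in that comparison of 1 HFD mouse with 2 chow mice. DESeq2 called 15, edgeR's likelihood-ratio test 18, and scaling by total UMIs 19, with the median of all genes then at 0.21. Calls over all genes rose as well, to 961, 1307 and 983 of 4955, from 805.

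Whether the diet effect differed between stages was tested as an interaction of the pooled resident-like and monocyte-like sums. edgeR's quasi-likelihood test called 0 members (0.285% of all genes), and DESeq2 and the likelihood-ratio test called 0. At an unadjusted p under 0.05 there were 0 members and 384 of 4914 genes. The highest differences were Psmc1 (0.47, adjusted p = 0.821), Psmb7 (0.32, adjusted p = 0.908) and the ATPase Psmc5 (0.20, adjusted p = 0.965). Psma3 (−1.30, adjusted p = 0.646), Psmd5 (−0.87, adjusted p = 0.755) and Psmd10 (−0.87, adjusted p = 0.681) were lowest. The spread of these estimates, with a standard error of 0.63 for Psma3 and 0.41 for Psmc1, leaves differences of that size undetected.

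A list of 36 other genes of the pathway was run in the same fits. From monocyte-like to resident-like cells 25 were tested, 3 rose and 4 fell, near the 25.2% of all genes called in that comparison: the ubiquitin gene Ubb (0.51) and Nfe2l2 (0.51), a stress factor, were among those higher, and Sem1 (−0.95, adjusted p = 5.23e-05), the immunoproteasome subunit Psmb10 (−0.82), the activator subunit Psme2 (−0.76) and Pomp (−0.48, adjusted p = 0.00545) were lower in edgeR. Pomp, the chaperone of the beta ring, had 673, 636, 797 and 941 CPM in monocyte-like and 449, 428, 609 and 740.2 CPM in resident-like cells. Pomp was not called with any 1 mouse left out (−0.52 to −0.40, adjusted p of 0.011 to 0.053). Nfe2l2 and Ubb were also less stable calls: with total UMIs they were at 0.27 and 0.26 and were not called. Without chow 9 (0.49 and 0.44) or HFD 1 (0.50 and 0.46) neither was called, nor was Ubb without HFD 3 (0.55). Nfe2l1 was at 0.48 (adjusted p = 0.371) and Adrm1 at −0.09 (adjusted p = 0.828).

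With HFD, 3 of 24 tested genes of this list rose in monocyte-like cells (1.46% of all genes called), Psmb9 (1.41, adjusted p = 0.00115), Psmb10 (1.31, adjusted p = 0.0042) and Psme2 (1.22, adjusted p = 0.0021), where no constitutive member was called. In cluster 2, 5 of 26 rose (3.30% of all genes called): Psme2, Psmb9, Psmb10, the activator subunit Psme1 (1.16) and Pomp (0.94, adjusted p = 0.00477). Without HFD 3, which leaves 1 HFD mouse against 2 chow mice, Psmb10 in cluster 1 (1.15, adjusted p = 0.0272) and Psmb9 (1.64, 0.0286), Psmb10 (1.39, 0.3), Psme1 (1.14, 0.218) and Pomp (0.87, 0.523) in cluster 2 were not called at similar fold changes. Without HFD 1 the same held in cluster 2 for Psmb10 (1.41, 0.223), Psme1 (1.17, 0.142) and Pomp (1.03, 0.195). In cluster 4, 1 of 24 rose, Psme2 (1.56, adjusted p = 0.00442), a call lost without any 1 mouse, at log2 fold changes of 1.28 to 1.79. edgeR called 0 of 29 in cluster 3 and 0 of 25 in cluster 5. There 7 and 8 had an unadjusted p under 0.05, as had 578 of 5502 and 434 of 5163 of all genes. DESeq2 called 0 and 2, and the likelihood-ratio test 1 and 3. Over all cells 8 of 26 rose (7.67% of all genes rose), led by Psme2 (1.88), Psmb10 (1.77) and Psmb8 (1.54), and 2 fell, among them Nfe2l2 (−0.65, adjusted p = 0.00772). Of those named, Psmb8 and Nfe2l2 were not called without HFD 1 (adjusted p = 0.0184 and 0.0403) or HFD 3 (0.0226 and 0.0896), and Nfe2l2 not without chow 9 (0.0165) or with total UMIs (−0.43, adjusted p = 0.0285). The interaction test called 0 of 25, with 0 at an unadjusted p under 0.05 and 0 by DESeq2 or the likelihood-ratio test.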

How the data were processed

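The authors deposited 1 table of raw UMI counts per gene and cell for 4 libraries of colon macrophages, made per their methods with kallisto 0.46.0 and bustools 0.39.2 on the mouse transcriptome of Ensembl 97 (mm10). Whether counting used strand is not given in the sources used here. Gene symbols came from GENCODE (11819 of 11820 identifiers matched). Cells were grouped with scran 1.30.0 and scater 1.30.1 on 8 principal components of 6589 genes with variance above a trend, both taken without the members, by Ward clustering into 6 clusters, and possible doublets were marked with Scrublet in scanpy 1.11.5 and kept.

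The counts of a mouse's cells in each cluster were added up, genes were kept with over 1 CPM in at least 2 of these sums and detection in at least 5% of cells, and sums were tested in R 4.3.3 with edgeR 4.0.16 (TMM scaling, quasi-likelihood test, Benjamini-Hochberg adjustment over all genes tested, false discovery rate of 1%). Adjusted p-values in the text are from this test unless another is named. Diet effects compared 2 chow with 2 HFD mice, stage effects carried mouse as a block, and the interaction was fitted on monocyte-like and resident-like sums. CPM values in the text use 1 TMM scaling over all cluster sums, and a separate one over the all-cell sums. The ratio used summed core over summed regulatory CPM on the log2 scale, and its counting error covers counting only.

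Depth was 3824228 to 7947893 UMIs per mouse. The scripts were tested on simulated data. Members and gene lists were chosen with earlier results of these data known, so no count over them is independent support. Named were the catalytic subunits, every called member (up to 10 a comparison by size), the 3 highest and 3 lowest members of each comparison, and Pomp, Nfe2l1, Adrm1 and up to 6 called genes of the pathway list. Sem1 was singled out after its values were seen. The values of 1 called gene of the pathway list are not reported here. Alternatives were DESeq2 1.42.0, edgeR's likelihood-ratio test, no filter, a false discovery rate of 5%, total UMIs, 8 clusters, clusters built with the members, no possible doublets, cells of at least 1500 UMIs, and each mouse left out. Motifs were searched as letters in RefSeq promoters.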

Additional observations from a re-analysis of the deposited data

How the results depend on the processing

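No paired analysis was possible because the chow replicates (9 and 11) and the HFD replicates (1 and 3) share no number; stage comparisons already carried mouse as a block. Precision is limited by groups of 2 mice, by the 26 and 50 cells of HFD mice in cluster 4 and by low counts of Psma3, Psmd5 and Psmd9. Of 202 alternatives for the core-to-regulatory ratio 152 stayed within 1 SD, of 142 for the UMI share 135, and of 160 for the number of members called 134 stayed within 1.5 times. The choices of total UMIs, of subunits with few shared words and of Sem1 with Adrm1 were made after seeing the data. Causes of the changes below were not tested unless the setting itself shows them.

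Members called changed as follows. Over all cells, 13 with the main choice, they were 20 at a false discovery rate of 5%, 19 higher and 1 lower. At 5%, 1541 of 4955 genes were called, in place of 805. With 1 mouse left out fewer members were called, fewest without HFD 3, at a members' median of 0.51 to 0.58. In diet comparisons with 0, cluster 1 had 0 to 1 with 1 mouse left out, cluster 2 had 1 at 5%, 1 by the likelihood-ratio test, 5 without a filter and 0 to 3 with 1 mouse left out, and cluster 3 had 1 with clusters built with subunit genes. From monocyte-like cells, cluster 2 (0, with 435 genes) had 3 at 5% (753 genes) and 1 by the likelihood-ratio test (738 genes). It had 1 with 8 clusters (580 genes) and 3 in HFD mice alone (882 genes). Cluster 4 (2, with 622 genes) had 5 at 5% (960 genes), 1 by DESeq2 (524 genes) and 5 without a filter (837 genes). It had 4 with clusters built with subunit genes (1170 genes), 4 in chow mice alone (849 genes) and 0 in HFD mice alone (194 genes). With 1 mouse left out it had 1 to 3, with 307 to 623 genes. Cluster 5 (7, with 1100 genes) had 17 with total UMIs (1449 genes) and 3 in HFD mice alone (625 genes). Pooled resident-like cells (7, with 1236 genes) had 17 with total UMIs (1538 genes).

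The core-to-regulatory ratio, resident-like minus monocyte-like, stayed below 0 in each setting. With each subunit weighted alike it was −0.28 (pooled), −0.054 in cluster 2, −0.20 in cluster 4 and −0.26 in cluster 5. With subunits that share under 10% of words it was −0.48 (pooled) and −0.48 in cluster 5. With Sem1 and Adrm1 it was −0.17 (pooled), −0.060 in cluster 3, −0.21 in cluster 4 and −0.16 in cluster 5. With each subunit left out in turn it ran from −0.53 to −0.27 (pooled) and from −0.53 to −0.26 in cluster 5, and it was −0.49 in cluster 5 when clusters were built with subunit genes.

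The mean ratio itself was 1.23 in monocyte-like and 0.756 in resident-like cells with few shared words, 0.573, 0.401 and 0.490 (all cells) with Sem1 and Adrm1, and 1.03 in resident-like cells with each subunit weighted alike. Leaving out each subunit gave 0.978 to 1.56 in monocyte-like cells, 0.705 to 1.09 in resident-like cells and as low as 0.855 over all cells.

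HFD minus chow of the ratio stayed above 0. With each subunit weighted alike it was 0.13, 0.14, 0.18 and 0.33 in clusters 1 to 4 and 0.29 over all cells. With few shared words it was 0.015, 0.13, 0.095 and 0.068 in clusters 1, 2, 4 and 5 and 0.053 in pooled resident-like cells. With Sem1 and Adrm1 it was 0.12, 0.15 and 0.037 in clusters 2, 3 and 4, 0.028 in pooled resident-like cells and 0.17 over all cells. As per-cell means it was 0.13 in cluster 4 and 0.37 over all cells, and 0.10 in cluster 4 with clusters built with subunit genes. Leaving out each subunit gave 0.015 to 0.11 in cluster 1, as low as 0.18 in cluster 2, up to 0.13 in pooled resident-like cells and 0.32 to 0.41 over all cells.

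The share of UMIs, HFD minus chow, was 0.169 in cluster 1 and 0.294 in cluster 3 with clusters built with subunit genes, 0.151 with 8 clusters and 0.193 as a per-cell mean in cluster 1, and 0.230 in cluster 1 and 0.446 over all cells without ribosomal, mitochondrial, MHC II and immunoglobulin UMIs. Cluster 3 minus cluster 1 was −0.0869 with clusters built with subunit genes, where the members' median log2 fold change was 0.18 against −0.11 with the main choice.

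Single genes changed sign in 34 of 1687 alternative values, none of them of a member called in the same comparison. With 1 mouse left out the ranges were, for diet, Psmb7 −0.053 to 0.61 in cluster 1, Psma3 −0.84 to 0.50 and Psmd6 −0.31 to 0.46 in cluster 2, Psmd9 −0.80 to 0.13 in cluster 3, Psmd6 −0.017 to 1.16 and Psmd9 −7.11 to 0.22 in cluster 4, Psma3 −0.48 to 0.019 in cluster 5, and Psmd9 −0.27 to 0.34 and Adrm1 −0.0011 to 0.57 over all cells. For stage they were Psmb7 −0.55 to 0.010 and Adrm1 −0.21 to 0.051 in resident-like cells, and for the interaction Psmb7 −0.46 to 1.13 and Psmc5 −0.67 to 1.00. Without a filter, Psmd4 was 0.0096 in cluster 1, Psma3 0.11, Psmd11 0.017 and Psmd6 0.22 in cluster 2, and Psmc5 −0.013 in the interaction. With clusters built with subunit genes, the diet effect of Psmd9 was 0.26 in cluster 3 and of Psmc3 0.054 in cluster 5, the interaction of Psmb7 −0.043 and of Psmc5 −0.057, and the stage difference of Psmb4 0.11 in cluster 3 and of Psmc1 −0.22 in cluster 5. Total UMIs gave 0.0044 for Psmd6 in diet cluster 2 and −0.13 for Psmc1 in stage cluster 5, which was −0.30 in chow mice alone. In resident-like cells Adrm1 was 0.28 in chow mice alone and Psmb7 0.058 in HFD mice alone.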
